A study of Mus musculus with 6 samples.

Results

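The mRNAs encoded by the mitochondrial genome were examined in the dorsal striatum, a motor and reward nucleus of the forebrain, in Ash1l_het and WT mice. Members were the rows of the deposited gene table placed on the mitochondrial genome, 13 of 34745 genes. All 13 were mRNAs. The mouse annotation (GENCODE M21, build GRCm38) places 37 genes there, 13 mRNAs, 2 ribosomal RNAs and 22 transfer RNAs. The deposited rows did not include any of these ribosomal or transfer RNAs, so shares of all counts are of totals without them. Every row had the start and end of its annotated gene.

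There were 3 libraries from mice heterozygous for Ash1l (Ash1l_het), which encodes a histone methyltransferase, and 3 from WT mice, the controls. All 6 came from C57BL/6 mice aged 1 year, and the dorsal striatum was the labelled tissue of each. The labels do not state the kind of Ash1l allele or that each library is 1 animal, and p-values therefore reflect only the variation among these 6 libraries, which may be technical. Total RNA was made into libraries with a stranded mRNA kit, and totals ran from 12080663 to 18798694 counts.

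Ash1l itself had 281, 197 and 253 CPM (counts scaled to library size with TMM factors, which correct for library composition) in Ash1l_het and 308, 295 and 292 CPM in WT. The groups did not overlap, as for 5.53% of all genes tested in the lower direction. The difference was -0.29 on the log2 scale, with an SE of 0.13, and did not pass the threshold (adjusted p = 0.858, edgeR). The protocol calls the mice male, but Xist, which is made from the inactive X chromosome, was present at 1954 to 2954 CPM throughout. Eif2s3y, Kdm5d, Uty and Ddx3y, 4 genes of the Y chromosome, had 1 count in all, for Kdm5d in a WT library, so all libraries go against the labelled sex, in both groups alike. All 10 striatal spiny neuron markers were detected, with summed levels of 7083, 7525 and 8727 CPM in Ash1l_het and 8014, 7429 and 8566 CPM in WT. By sign 2 were higher in Ash1l_het and 8 lower, beside 48.6% lower over all genes tested, and 0 were called. Without Ash1l_het replicate 2, 4 were higher and 6 lower, beside 50.5% lower. Pde10a, 1 of the 10, had 2226, 2014 and 2446 CPM in Ash1l_het and 2392, 983 and 2274 CPM in WT, which lowers the sum of WT replicate 2. Chosen cortical neuron markers summed to 102, 21.1 and 63.8 CPM in Ash1l_het and 76.4, 46.6 and 61.6 CPM in WT. Blood cell genes summed to 123, 109 and 56.1 CPM in Ash1l_het and 25.1, 35.4 and 23.0 CPM in WT. All 5 had an unadjusted p under 0.05 (edgeR), beside 5.78% of all genes tested. With all libraries none passed the adjusted threshold. Without Ash1l_het replicate 3, 2 of them were called, beside 13 of 15448 genes tested. Ash1l_het replicate 2 stood apart from the other libraries in several of the results that follow, and counts and fold changes it moved are also given without it.

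Mitochondrial DNA is a small circle kept in many copies per cell, and it encodes subunits of complexes I, III and IV of the respiratory chain and of ATP synthase, which striatal neurons use to make ATP. Both strands are transcribed by the RNA polymerase Polrmt into long precursors, from which the mRNAs are cut, largely at the transfer RNAs between them. All of the mRNAs except mt-Nd6 are encoded so that they share a strand, and mt-Atp8 with mt-Atp6 and mt-Nd4l with mt-Nd4 remain joined in bicistronic mRNAs. Several mRNAs end without a whole stop codon, which the added poly(A) tail completes. In human cells the mt-Nd6 counterpart is reported to carry little or no poly(A) tail.

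The sequences, from GENCODE M21 on build GRCm38, show these features, and the joined pairs matter for counting, because reads in an overlap belong to both genes of a pair. The overlap of mt-Atp8 (MT:7766-7969) with mt-Atp6 (MT:7927-8607) covers 43 bases, 21.1% of mt-Atp8, and is in capitals at MT:7917-7979, plus strand.
mt-Atp8 and mt-Atp6: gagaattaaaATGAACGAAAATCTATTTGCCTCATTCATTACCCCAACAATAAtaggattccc
The 7 bases that mt-Nd4l (MT:9877-10173) shares with mt-Nd4 (MT:10167-11544) are in capitals at MT:10152-10188, plus strand.
mt-Nd4l and mt-Nd4: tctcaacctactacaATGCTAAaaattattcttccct
The last 30 bases of 3 mRNAs are shown because they end 1 base past their last whole codon, a T in capitals that the poly(A) tail completes to a stop codon. They lie on the plus strand at MT:9361-9390, MT:11515-11544 and MT:15259-15288.
mt-Co3 3' end: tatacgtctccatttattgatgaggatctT
mt-Nd4 3' end: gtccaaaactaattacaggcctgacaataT
mt-Cytb 3' end: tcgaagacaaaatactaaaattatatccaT
The last 120 bases of mt-Nd6 (MT:13552-14070, minus strand) are shown because it is the mRNA of the other strand; they lie at MT:13552-13671, and the 14 bases it shares with the 3' end of mt-Nd5 (MT:11742-13565) are in capitals. It is 28.1% G and 5.97% C, whereas the other 12 mRNAs are 5.88% to 16.1% G.
mt-Nd6: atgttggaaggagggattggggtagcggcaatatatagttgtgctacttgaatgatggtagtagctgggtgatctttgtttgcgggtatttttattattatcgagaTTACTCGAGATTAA

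Together the 13 mRNAs held 17.3%, 15.9% and 18.8% of all counts in Ash1l_het and 16.2%, 18.8% and 16.7% in WT. The groups overlapped, with means of 17.3% ± 1.44 in Ash1l_het and 17.2% ± 1.34 in WT (SD, n = 3 each), and the difference of 0.118 percentage points was smaller than either SD. As a share of summed FPKM in place of counts the difference was -0.128 points, with overlap. The 95% Wilson interval of each library's share was at most 0.0208 points either side, so counting error was far below the spread between libraries (intervals cover counting error only). Leaving out each library in turn gave differences of -0.613 to 0.881 points. In whole tissue, fewer cells of a type rich in mitochondria and less mitochondrial RNA per cell cannot be told apart.

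**Figure D1:**
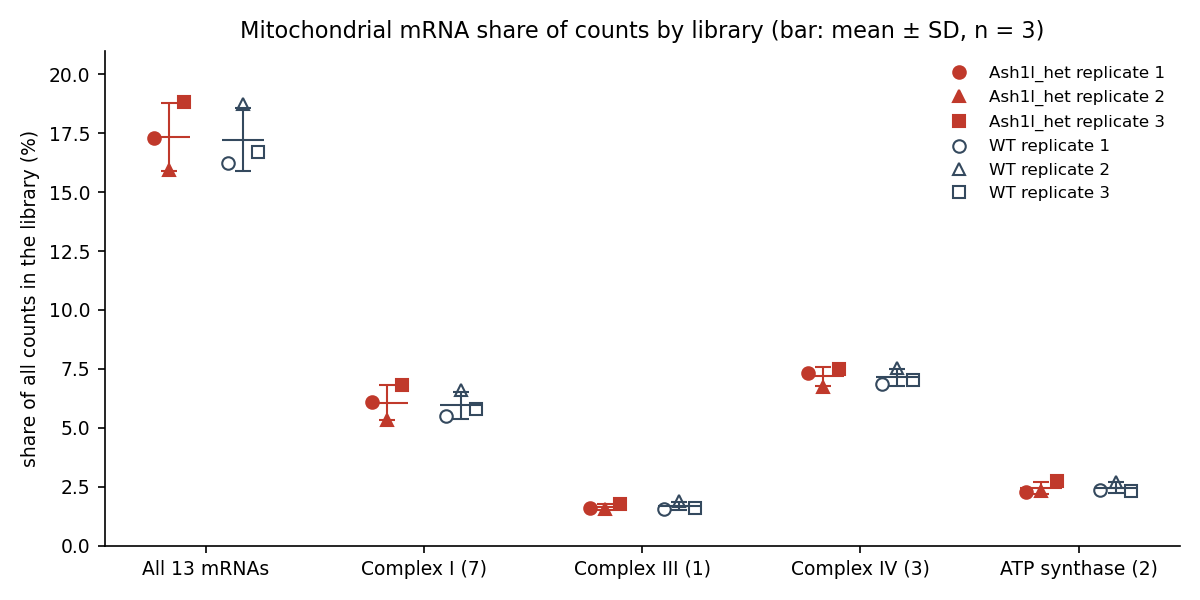
Share of all counts in each library (y axis, percent) held by all 13 mitochondrial mRNAs and by those of each complex, with the number of mRNAs in brackets. Points are libraries, and the bar with whiskers is the mean ± SD (n = 3); the 3 Ash1l_het libraries span 15.9% to 18.8% and the 3 WT libraries 16.2% to 18.8% for all mRNAs.

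By complex, complex I mRNAs made up 35.2%, 33.4% and 36.1% of the mitochondrial mRNA counts in Ash1l_het and 33.8%, 35.2% and 34.6% in WT. Complex IV mRNAs made up 42.2%, 42.2% and 39.9% in Ash1l_het and 42.2%, 40.2% and 42.0% in WT. mt-Cytb, the mitochondrial subunit of complex III, made up 9.36%, 9.70% and 9.42% in Ash1l_het and 9.50%, 10.01% and 9.59% in WT. The pair of ATP synthase mRNAs made up 13.2%, 14.7% and 14.5% in Ash1l_het and 14.5%, 14.5% and 13.8% in WT. For each complex the groups overlapped.

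Per length, the level of each mRNA, in FPKM (counts per kilobase of annotated length, scaled to the library total, as deposited), was compared between genes. mt-Atp8 averaged 33276 FPKM over the 6 libraries, mt-Co1 31297 and mt-Atp6 26069, and these led the order. mt-Co1 encodes the core catalytic subunit of complex IV, and mt-Atp6 and mt-Atp8 encode membrane subunits of ATP synthase. Then came mt-Co3 at 17093 FPKM, mt-Cytb at 14505, mt-Nd4 at 14480, mt-Co2 at 14366, mt-Nd4l at 13465 and mt-Nd1 at 13010, followed by mt-Nd2 at 9549 and mt-Nd5 at 7310. mt-Nd3 averaged 1267 FPKM and mt-Nd6 118 FPKM, 281-fold under mt-Atp8. Neighbours whose ranges over libraries did not overlap were mt-Atp6 above mt-Co3, mt-Nd1 above mt-Nd2, mt-Nd2 above mt-Nd5, mt-Nd5 above mt-Nd3 and mt-Nd3 above mt-Nd6, and the other neighbours overlapped. By mean FPKM over all genes, 11 of the 13 took the first 11 places, with mt-Nd3 at place 19 and mt-Nd6 at 145. The mt-Atp8 to mt-Atp6 ratio was 1.18, 1.47 and 1.26 in Ash1l_het and 1.25, 1.25 and 1.27 in WT, and the mt-Nd4l to mt-Nd4 ratio was 0.840, 0.980 and 0.957 in Ash1l_het and 0.867, 0.954 and 0.991 in WT, for transcripts that share a molecule. FPKM here uses the whole annotated length with no correction for read length, and mt-Atp8, at 204 bases, is the shortest of the 13.

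**Figure D2:**
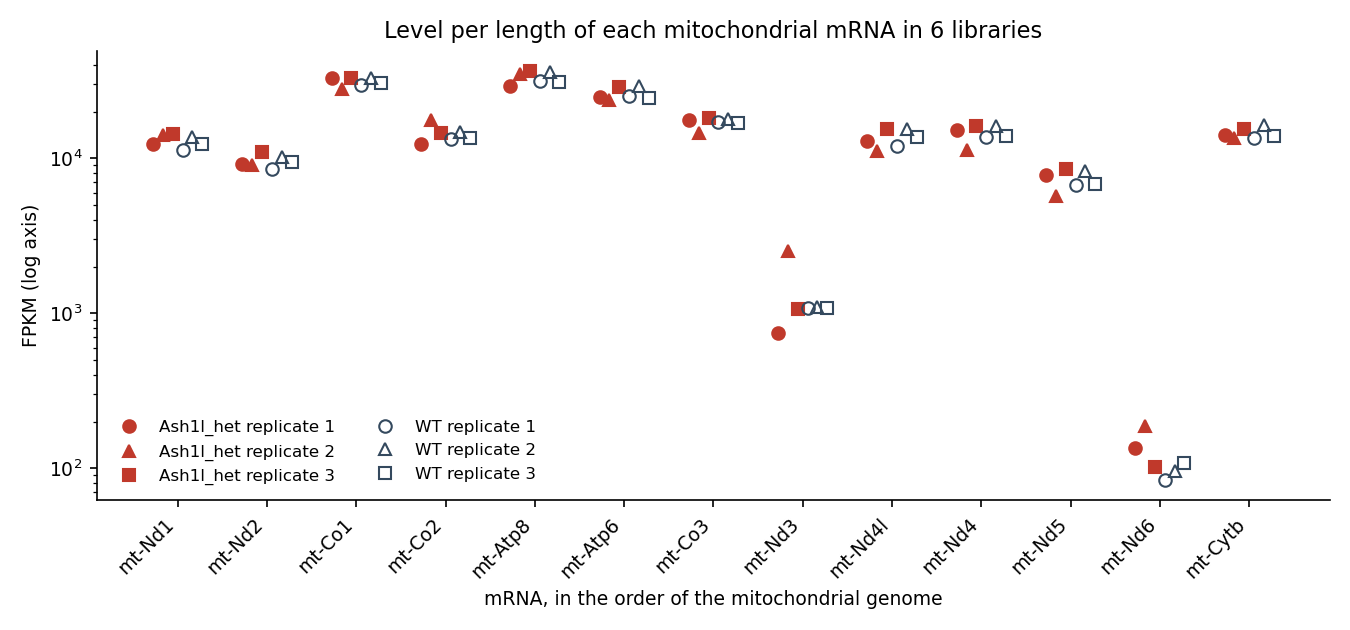
FPKM (y axis, log scale) of each mitochondrial mRNA in the order of the mitochondrial genome (x axis), with 1 point per library. 11 mRNAs lie between 5734 and 36545 FPKM in every library, and mt-Nd3 and mt-Nd6 lie below.

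No member differed between genotypes past the threshold. All 13 passed the expression filter, 0 of 13 were called (edgeR quasi-likelihood test, adjusted p under 0.05, adjusted over 15267 genes), against 2 genes called over all, 0.0131%. DESeq2, the edgeR exact test and limma-voom also called 0 of 13. Both genes called were nuclear, Usp46 (log2 fold change 1.54, SE 0.10, edgeR adjusted p = 0.00145) and Bend6 (1.39, SE 0.12, edgeR adjusted p = 0.00437). In CPM the 2 groups overlapped for every member. Over all genes tested they did not overlap for 11.7%, a share at which few of 13 genes would be expected not to overlap. By sign 5 members were higher and 8 lower, with a median log2 fold change of -0.01, beside 0.01 and 48.6% lower over all genes tested. Among the 13, 1 unadjusted p was under 0.05, beside 5.78% of all genes tested. Adjusted p-values of the members ran over 0.857 to 0.993.

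Within complex I, mt-Nd1, a subunit of the membrane arm, had 11709, 12621 and 14200 CPM in Ash1l_het and 10801, 13579 and 11845 CPM in WT. Its log2 fold change was 0.09 (95% interval -0.22 to 0.40). mt-Nd2 had 9408, 8778 and 11720 CPM in Ash1l_het and 8882, 10945 and 9880 CPM in WT (log2 fold change 0.01, interval -0.32 to 0.34). For both, the libraries of the groups interleaved.

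mt-Nd5, also a membrane arm subunit, had 14172, 9819 and 15989 CPM in Ash1l_het and 12233, 15660 and 12468 CPM in WT, with a log2 fold change of -0.01 (interval -0.44 to 0.42). mt-Nd4 had 20915, 14734 and 23087 CPM in Ash1l_het and 18956, 23179 and 19326 CPM in WT (log2 fold change -0.07, interval -0.47 to 0.34). mt-Nd4l, read from the same molecule as mt-Nd4, had 3786, 3111 and 4762 CPM in Ash1l_het and 3541, 4768 and 4128 CPM in WT (log2 fold change -0.09, interval -0.49 to 0.30). In all 3 of these the second Ash1l_het library was the lowest of the 6.

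mt-Nd3 had 257, 824 and 385 CPM in Ash1l_het and 378, 398 and 375 CPM in WT. The WT libraries were tightly grouped, with 1 Ash1l_het library below them, 1 above and 1 within their range. The fitted log2 fold change was 0.35 (SE 0.42, interval -0.67 to 1.37, edgeR adjusted p = 0.928), and without Ash1l_het replicate 2 it was -0.26. The ratio of that library to the mean of the other 5 was 2.30, and 1.17% of all genes tested had a ratio at least as high.

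mt-Nd6 had 69.1, 90.5 and 54.7 CPM in Ash1l_het and 43.7, 51.4 and 56.3 CPM in WT. The third Ash1l_het library lay within the WT range and the other two above it. Its log2 fold change was 0.50 (SE 0.18, interval 0.08 to 0.92), with an unadjusted edgeR p of 0.0242 and an adjusted p of 0.857, and it was the member with the lowest unadjusted p. It was 0.29 without Ash1l_het replicate 2 and 0.66 without Ash1l_het replicate 3, and was above 0 in each leave-one-out fit. mt-Nd6 overlaps mt-Nd5 on the opposite strand by 14 bases, and the labels do not say if counting was stranded, so reads of its antisense precursor cannot be told apart from its own. The mt-Nd5 to mt-Nd6 ratio in FPKM was 58.3, 30.9 and 83.2 in Ash1l_het and 79.7, 86.8 and 63.0 in WT.

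mt-Cytb had 16026, 14499 and 18296 CPM in Ash1l_het and 15422, 19493 and 16073 CPM in WT (log2 fold change -0.06, interval -0.39 to 0.26). Within complex IV, mt-Co1 had 50168, 40913 and 52595 CPM in Ash1l_het and 45928, 53341 and 47805 CPM in WT (log2 fold change -0.03, interval -0.36 to 0.29). mt-Co2, which holds the site that receives electrons from cytochrome c, had 8358, 11402 and 10292 CPM in Ash1l_het and 9097, 10492 and 9233 CPM in WT (log2 fold change 0.06, interval -0.26 to 0.39). mt-Co3 had 13799, 10783 and 14676 CPM in Ash1l_het and 13426, 14528 and 13399 CPM in WT (log2 fold change -0.08, interval -0.40 to 0.25). The second Ash1l_het library was highest for mt-Co2 and lowest for mt-Cytb, mt-Co1 and mt-Co3.

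Of the ATP synthase pair, mt-Atp6 had 16712, 15218 and 20446 CPM in Ash1l_het and 17129, 20581 and 16735 CPM in WT (log2 fold change -0.06, interval -0.40 to 0.29). mt-Atp8 had 5925, 6694 and 7698 CPM in Ash1l_het and 6421, 7682 and 6363 CPM in WT (log2 fold change -0.01, interval -0.33 to 0.31). For both genes the groups overlapped.

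**Figure D3:**
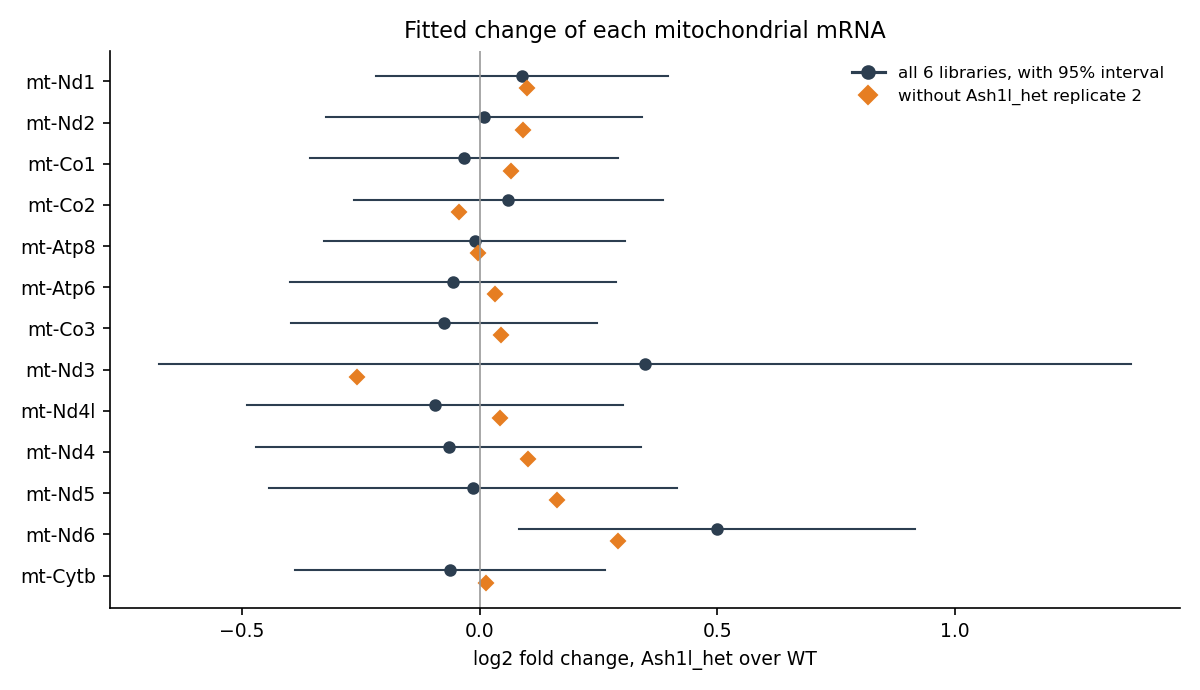
Log2 fold change of each mitochondrial mRNA, Ash1l_het over WT (x axis), with its 95% interval from the edgeR fit, and the same value without Ash1l_het replicate 2. The interval includes 0 for all but mt-Nd6, and mt-Nd3 is at 0.35 with the library and -0.26 without it.

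Ash1l_het replicate 2 was the highest of the 6 libraries for 3 members, mt-Nd3, mt-Nd6 and mt-Co2, and the lowest for 8, beside 24.1% highest and 22.7% lowest over all genes tested. Its level over the mean of the other 5 was 2.30 for mt-Nd3, 1.65 for mt-Nd6 and 1.20 for mt-Co2, and 0.699 for mt-Nd4 and 0.696 for mt-Nd5. Without it, 10 members were higher and 3 lower by sign (median log2 fold change 0.05) and none was called; without WT replicate 2, 12 were higher and 1 lower (median 0.08) and none was called.

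Shares of the pool were also set against transcript length. For 11 transcripts or joined pairs, the log2 ratio of the share of the mitochondrial mRNA pool to the mean of WT ran against length with a Spearman rho of -0.83 in Ash1l_het replicate 2. The rho was 0.45 in Ash1l_het replicate 1 and 0.64 in Ash1l_het replicate 3. In the WT libraries, each set against the mean of the other WT libraries, it was -0.30, 0.78 and -0.37. Over the 10 without mt-Nd6 it was 0.82, -0.77 and 0.71 in Ash1l_het and -0.61, 0.72 and -0.21 in WT, so an order by length of similar strength was seen in other libraries, in some with the opposite sign. The largest shift of any transcript, in either direction, was 1.32 in Ash1l_het replicate 2, beside 0.55 and 0.15 in Ash1l_het replicates 1 and 3 and 0.16, 0.20 and 0.33 in the WT libraries. These rhos are across transcripts of 1 library, which share its depth, and carry no p. In Ash1l_het replicate 2 nuclear genes under 1000 bases had a median log2 ratio of 0.32 (501 genes), beside 0.00 for longer ones, and in Ash1l_het replicates 1 and 3 the short ones had medians of -0.09 and -0.02. With all libraries kept, summed marker levels in that library were 1640 CPM for astrocyte markers, 7978 CPM for oligodendrocyte markers and 431 CPM for microglia markers, each the highest of the 6, and cortical neuron markers were lowest there for 6 of 6. The part of length, cell makeup or the library itself in its mitochondrial values was not tested.

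**Figure D4:**
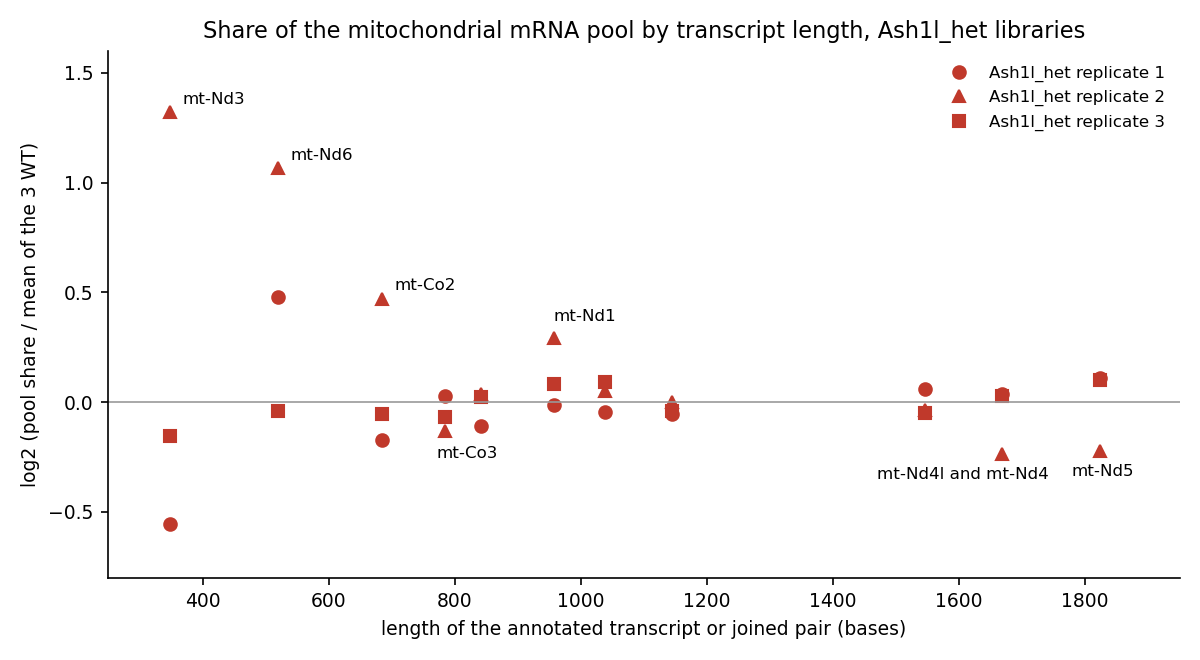
Log2 ratio of each transcript's share of the mitochondrial mRNA pool to the mean of the 3 WT libraries (y axis) against annotated length in bases (x axis), for the 3 Ash1l_het libraries. In replicate 2 the short mt-Nd3 is at 1.32 and the long mt-Nd5 at -0.22.

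Nuclear copies of mitochondrial DNA can take reads from these genes. A block on chromosome 1 (chr1:24611535-24616197, GRCm38, minus strand) holds 7 annotated copies in 4663 bases, 5 of which match their mitochondrial gene with no mismatch over the copied part. The first 120 bases of mt-Nd3 and of its copy Gm28438 are printed because the copy differs at 1 base over its 345 bases (T3C, mt-Nd3 base first, counted from 1 at its 5' end), in capitals, so that nearly all of their reads cannot be told apart by sequence. The printed bases lie at MT:9459-9578, plus strand, and at chr1:24613000-24613119, minus strand.
mt-Nd3: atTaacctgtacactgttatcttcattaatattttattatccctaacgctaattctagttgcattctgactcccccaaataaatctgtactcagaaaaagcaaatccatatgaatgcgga
Gm28438: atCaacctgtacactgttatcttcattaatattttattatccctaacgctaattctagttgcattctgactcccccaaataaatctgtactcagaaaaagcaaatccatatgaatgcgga

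The 7 copies held 0.897%, 1.23% and 0.889% of all counts in Ash1l_het and 0.839%, 0.920% and 0.804% in WT. Per 100 counts of their mitochondrial genes they held 7.79, 11.9 and 7.27 counts in Ash1l_het and 7.73, 7.50 and 7.28 in WT. The second Ash1l_het library was the highest for 6 of the 7 pairs and the exception was Gm28438, with 21.7, 16.8 and 17.3 counts per 100 of mt-Nd3 in Ash1l_het and 20, 18.1 and 14.7 in WT. The copies were all higher in Ash1l_het by sign (median log2 fold change 0.20, beside 0.01 over all genes tested), but 4 were higher and 3 lower without Ash1l_het replicate 2 (median 0.03). The difference in their share of counts was 0.149 points with that library and 0.0385 points without it, and the difference per 100 counts was 1.47 with it and 0.0254 without it. With all libraries 0 of 7 were called (edgeR, with 0 unadjusted p under 0.05), beside 0.0131% of all genes. With the counts of each copy added to its gene, the difference in share between the genotypes was 0.267 points, and no member was called. The labels do not say how reads with several matches were assigned, so the split of counts within each pair is uncertain. Another 10 nuclear transcripts matched a mitochondrial mRNA at 90% identity or more over at least 100 bases; 5 of them were in the table, with at most 6095 counts in 1 library.

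**Figure D5:**
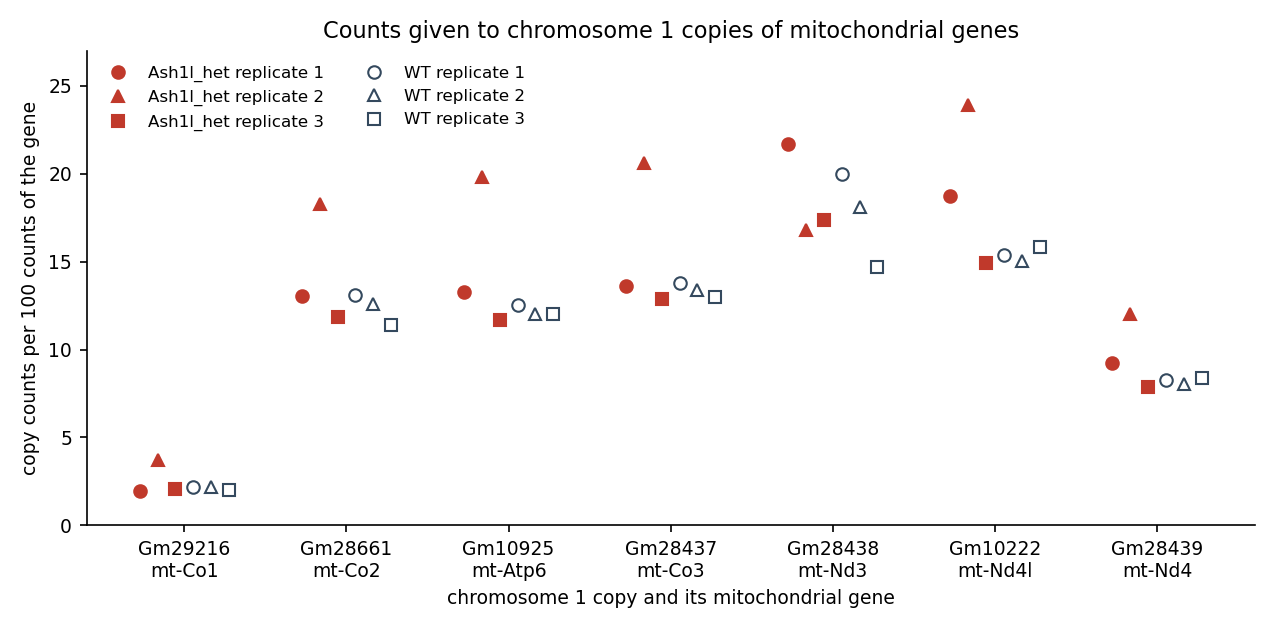
Counts of each chromosome 1 copy per 100 counts of its mitochondrial gene (y axis), by library, for 7 pairs (x axis). Ash1l_het replicate 2 is highest in 6 pairs, for example 18.3 for Gm28661 against 13.1, 12.6 and 11.4 in the WT libraries.

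Nuclear genes that make or maintain mitochondrial RNA were set beside the mRNAs. Of 39 such genes tested, 22 were higher and 17 lower by sign, 0 were called and 2 had an unadjusted p under 0.05, with a median log2 fold change of 0.02. Over all genes tested 48.6% were lower, 0.0131% were called and 5.78% had an unadjusted p under 0.05. Polrmt, the mitochondrial RNA polymerase, had 17.9, 20.2 and 27.1 CPM in Ash1l_het and 28.1, 28.9 and 25.3 CPM in WT (difference -0.34 on the log2 scale, adjusted p = 0.868, edgeR), and Tfam, which packages mitochondrial DNA and helps start transcription, had 22.1, 24.5 and 21.8 CPM in Ash1l_het and 19.8, 19.5 and 20.7 CPM in WT (0.19, SE 0.12, edgeR adjusted p = 0.889). Tfam did not overlap between the groups, as for 6.18% of all genes in that direction. Lrpprc, which stabilises mitochondrial mRNAs, had 60.2, 57.8 and 55.3 CPM in Ash1l_het and 51.4, 53.7 and 55.0 CPM in WT (0.11, SE 0.10, edgeR adjusted p = 0.900), also without overlap. Trmt10c, a subunit of the nuclease that frees transfer RNA 5' ends, differed by 0.40 on the log2 scale (SE 0.17) and Fastkd1, a mitochondrial RNA-binding protein, by 0.38 (SE 0.17), and neither passed (edgeR adjusted p = 0.857 and 0.858).

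Of 77 nuclear genes of oxidative phosphorylation, a list that also holds complex II, cytochrome c and the ATP synthase inhibitor Atpif1, 53 were higher and 24 lower by sign with a median of 0.06, and 0 were called, with 1 unadjusted p under 0.05. In Ash1l_het replicate 2, 56 of them were highest, beside 24.1% of all genes tested. Without that library 12 were higher and 65 lower (median -0.15, beside -0.0022 and 50.5% lower over all genes tested), and 0 were called. Without Ash1l_het replicate 1 the direction was the reverse, with 64 higher and 13 lower and 0 called. The median was then 0.18, beside 0.0036 and 49.2% lower over all genes tested. The sign count of this list therefore depended on which Ash1l_het library was left out. Their summed level was 3878, 5204 and 4540 CPM in Ash1l_het and 4386, 4589 and 4780 CPM in WT, with overlap, while the mitochondrial mRNAs summed to 171304, 149487 and 194199 CPM in Ash1l_het and 162260, 194697 and 167688 CPM in WT. In the second Ash1l_het library the nuclear sum was the highest of the 6 and the mitochondrial sum the lowest. Ndufv2, a complex I subunit of the electron input module, had the lowest unadjusted p of that list, with 45.3, 51.0 and 59.9 CPM in Ash1l_het and 60.4, 64.6 and 64.1 CPM in WT without overlap (difference -0.28 on the log2 scale, adjusted p = 0.857, edgeR). Of 77 genes for mitochondrial ribosomal proteins, which translate the mRNAs, 42 were higher and 35 lower by sign with a median of 0.02, and 0 were called. In Ash1l_het replicate 2, 40 of them were highest, beside 24.1% of all genes tested. Without that library 20 were higher and 57 lower (median -0.09, beside 50.5% lower over all genes tested). Without Ash1l_het replicate 1, 54 were higher and 23 lower (median 0.07, beside 49.2% lower over all genes tested), so this count also changed direction. With all libraries, none of these ribosomal protein genes had an unadjusted p under 0.05, and DESeq2 also called 0 genes of the 3 nuclear lists. Mrpl4 had the lowest unadjusted p there, at -0.23 on the log2 scale (adjusted p = 0.878, edgeR).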

How the data were processed

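RNA from 3 Ash1l_het and 3 WT dorsal striata was analysed from raw counts per gene that the authors deposited, and from FPKM values in the same table, which the deposited numbers show to be scaled by the annotated length of each mitochondrial gene. Tools listed in the submitters' processing notes are HISAT2, StringTie, edgeR, FastQC and CASAVA, with build GRCm38 and no roles or settings. The members and gene lists were chosen with earlier results of these data known.

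Counts were tested with edgeR 4.0.16 in R 4.3.3 (robust quasi-likelihood, TMM, default expression filter with minimum count 10, Benjamini-Hochberg adjustment over all genes tested, adjusted p under 0.05). Shares are of the library total and carry no test. Alternatives used limma 3.58.1 and DESeq2 1.42.0. Member counts ran from 528 to 957561 per library. Copies were found by aligning GENCODE M21 transcripts. Every mitochondrial mRNA was named, then Tfam, Polrmt, Lrpprc and, from each nuclear list, genes with the smallest unadjusted p.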

Additional observations from a re-analysis of the deposited data

How the results depend on the processing

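No mitochondrial mRNA was called under any alternative run. With all libraries kept, 170 of 182 refitted log2 fold changes kept their sign. The 12 that did not were near 0: mt-Co1 was 0.00058 in the 3 fits to log2 FPKM; mt-Atp8 was 0.0034 with upper-quartile scaling, 0.025 with the mitochondrial total as library size and 0.026 on log2 FPKM; mt-Nd5 was 0.0035 with that total and 0.0056 on log2 FPKM. Leaving out each library kept 59 of 78. Over these fits log2 fold changes ran from -0.125 to 0.092 for mt-Nd2, -0.109 to 0.066 for mt-Co1, -0.044 to 0.174 for mt-Co2, -0.114 to 0.081 for mt-Atp8, -0.187 to 0.041 for mt-Atp6, -0.168 to 0.045 for mt-Co3, -0.258 to 0.653 for mt-Nd3, -0.268 to 0.043 for mt-Nd4l, -0.203 to 0.102 for mt-Nd4, -0.168 to 0.163 for mt-Nd5 and -0.157 to 0.045 for mt-Cytb. Genes called over all were 7 with the mitochondrial total as library size, 39 with DESeq2, 39 with the edgeR exact test and 1 to 13 with a library left out; the cause was not tested. In the make-up of the pool, 0 mRNAs had shares that did not overlap between groups, and 0 to 4 with a library left out. The 4 were mt-Co2, mt-Nd3, mt-Nd5 and mt-Cytb, without Ash1l_het replicate 2. With fewer libraries in a group non-overlap arises more easily, and its share over all genes was not computed. The share of mt-Nd4l in the pool differed by -0.36 points on summed FPKM, a different denominator, beside -0.12 points on counts, where the groups overlapped. The replicate numbers did not pair the libraries (r of 0.056, -0.075 and 0.011), and with a replicate block 3 genes and 0 members were called. Adding copies, the relation to length and the sign counts of lists without a library were chosen after seeing the data. Counting depth was not the limit for any member, but 3 libraries a group leave intervals of about 0.3 on the log2 scale either side for most.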
